A study of Mus musculus with 74 samples.

Results

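The Krüppel-like factors (KLFs) described here are 9 genes, Klf2, Klf3, Klf4, Klf5, Klf6, Klf7, Klf9, Klf10 and Klf13, found by their symbols among the 37620 genes of the RNA-seq tables, in which 17 genes carry a Klf symbol. They were followed in all 35 libraries, and the question was how each depends on LIF, the cytokine that sustains mouse embryonic stem (ES) cells in serum, and how far induction of Nanog restores it when LIF is withdrawn. All 9 members were expressed above the minimum for testing in every comparison: a gene was tested where every library of at least 1 of the groups fitted held at least 10 normalised counts.

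The ES cells were derived from the E14Tg2a line and grown in serum. Nanog SunTag cells carry a doxycycline (Dox)-inducible dCas9 linked to GCN4 epitopes and a diffusible antibody fused to GFP and the activator VP64, with a guide RNA to the Nanog promoter, and were represented by 1 clone from each of the parental SunTag clones C1 and C2. Nanog/Otx2 SunTag cells carry a second guide, to Otx2, added to the Nanog SunTag cells, and were represented by the single clones C1ON3 and C2ON3. The 4 clones thus trace back to the 2 parental clones C1 and C2 and are not 4 independent lines. Below, both guides stands for these cells and the Nanog guide alone for the former. Both were cultured for 3 days with or without LIF (10 ng/mL) and with or without Dox (1 µg/mL). Nanog SunTag cells gave 3 libraries with LIF, 2 with LIF and Dox, 3 without either and 3 with Dox but no LIF, and Nanog/Otx2 SunTag cells gave 3, 4, 4 and 4. 44iN cells lack endogenous Nanog and carry a Dox-dependent Nanog transgene. In LIF they gave 2 libraries with Dox, 2 from cells deprived of Dox for 24 h and 2 from cells kept long term without Dox under G418. Wild-type E14Tg2a cells in serum and LIF gave 3 libraries. No SunTag library without a guide was analysed here, so that the effects of Dox itself, of SunTag expression and of the guide cannot be told apart. Each SunTag group holds 2 clones at most, and p-values measure the spread between these libraries, part of which may be technical. Column names of Nanog SunTag libraries carry a different letter code with LIF than without, whose meaning the labels do not give. Whatever this code marks cannot be told apart from LIF in these cells.

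KLFs are transcription factors that bind GC boxes and CACCC boxes through C-terminal zinc fingers, and their amino-terminal parts decide whether they activate or repress. In mouse ES cells Klf2, Klf4 and Klf5 are activators of the naive pluripotency network and can partly replace each other. LIF acts through its receptor LIFR, the shared subunit gp130 (Il6st) and JAK kinases to phosphorylate STAT3, of which Klf4 is a known target, and Klf4 and Nanog are both used to sustain self-renewal when LIF is absent. Klf3 is a repressor that recruits CtBP, Klf9, Klf10 and Klf13 can recruit the Sin3A corepressor, and Klf6 and Klf7 form a related pair of activators.

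Promoters of the members differ in the motifs that KLFs themselves read. Of the 9 members, 7 have an entry in the RefSeq promoter table (GRCm38.p6), and Klf5 and Klf10 have none. In the 250 bases before the start site, the GC box (GGGCGG or CCGCCC on the other strand) was found at least once in 6 of the 7 and the CACCC box (CACCC or GGGTG) in 5, against 32.7% and 52.0% of all 32851 promoters. A STAT site (TTCNNNGAA, the same on both strands) was found in that of Klf9 alone, against 7.02% of all promoters. The 3 windows printed here belong to Klf2 (chr8:72318812-72319061, plus strand) and Klf4 (chr4:55532476-55532725, minus strand), the members that fell most on LIF withdrawal, and Klf7 (chr1:64121390-64121639, minus strand), the member that rose most. They are written 5′ to 3′, ending at the base before the start site, and capitals mark GC boxes and CACCC boxes.
Klf2: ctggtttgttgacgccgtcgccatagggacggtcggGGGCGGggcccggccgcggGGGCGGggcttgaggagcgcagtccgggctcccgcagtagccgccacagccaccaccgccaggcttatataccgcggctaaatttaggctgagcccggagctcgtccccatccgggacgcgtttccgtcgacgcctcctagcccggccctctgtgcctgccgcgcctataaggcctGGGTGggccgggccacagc
Klf4: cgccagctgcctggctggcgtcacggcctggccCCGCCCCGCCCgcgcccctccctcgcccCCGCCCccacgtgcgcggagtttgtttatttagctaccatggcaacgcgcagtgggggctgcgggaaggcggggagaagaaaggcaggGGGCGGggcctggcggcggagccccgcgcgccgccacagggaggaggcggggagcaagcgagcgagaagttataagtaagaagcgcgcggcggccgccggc
Klf7: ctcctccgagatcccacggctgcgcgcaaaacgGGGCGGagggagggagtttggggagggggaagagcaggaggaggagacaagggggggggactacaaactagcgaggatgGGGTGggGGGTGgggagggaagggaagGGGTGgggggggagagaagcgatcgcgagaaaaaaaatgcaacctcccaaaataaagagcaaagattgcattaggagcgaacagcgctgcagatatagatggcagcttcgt

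The Klf2 window held 2 GC boxes and 1 CACCC box, the Klf4 window 4 GC boxes, some of which overlap, and no CACCC box, and the Klf7 window 1 GC box and 3 CACCC boxes. The windows not printed held 6 GC boxes and 5 CACCC boxes (Klf3), 3 and 1 (Klf13), 1 and 0 (Klf6) and 0 and 1 (Klf9). These counts describe letters and not binding. The windows were GC-rich, from 59.2% for Klf7 to 78.4% for Klf3, with a median of 52.4% over all promoters.

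The libraries held between 6107512 and 92244655 counts, with a median of 29298745, and the shallowest belonged to the Nanog/Otx2 SunTag group with LIF and no Dox. Nanog, the targeted gene, rose with Dox in the absence of LIF by 3.16 on the log2 scale in Nanog SunTag cells (adjusted p = 0.000899, by the quasi-likelihood test of edgeR, Benjamini-Hochberg adjusted over all genes, as for every adjusted p that follows) and by 3.19 in Nanog/Otx2 SunTag cells (adjusted p = 1.7e-05). In LIF its difference was 1.74 (adjusted p = 0.0793) and 1.19 (adjusted p = 0.0196), the first of which did not pass the test. Both Nanog SunTag libraries with LIF and Dox (75226 and 93813 normalised counts) nevertheless lay above all those with LIF alone (21941 to 29487). ES cell markers (8 genes) were present in every library: their summed normalised counts were 121121 to 197716 in SunTag libraries with LIF and 65829 to 125662 without. The summed early differentiation markers (13 genes) were 3768 to 12334 with LIF, 69189 to 94274 without LIF or Dox and 33250 to 59576 with Dox alone. Over all conditions the summed trophoblast markers (7 genes) were 863 to 3801 and the summed fibroblast markers (9 genes) 111 to 1174. The sum of the early differentiation markers thus moved with LIF withdrawal and with Dox in its absence. Its genes did not all move with it. Of 12 tested, 6 rose and 4 fell on LIF withdrawal without Dox in Nanog SunTag cells, beside 20.2% and 21.3% of all genes. In Nanog/Otx2 SunTag cells 6 rose, beside 24.6%. With Dox in the absence of LIF 4 fell in the former, and in the latter 2 rose, beside 11.2% of all genes, and 1 fell. The shares of all genes that fell with Dox are not given here. The part of these markers in the results was not tested. In RNA from whole cultures, fewer cells expressing a gene and less of its RNA per cell cannot be told apart.

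Across the 12 conditions, the members fell into a group of wide range and a group of narrow range. The highest and lowest condition means differed 58.7-fold for Klf4, 29.9-fold for Klf2 and 13.2-fold for Klf5. The same ratio was 5.19 for Klf3, 4.75 for Klf6, 4.47 for Klf7 and 3.13 for Klf9, and it was lowest for Klf13 (1.86) and Klf10 (1.47). The most abundant member also changed with the condition. Per kilobase of exon sequence, in Nanog SunTag cells Klf2 led in LIF (1760.0 ± 170.0 normalised counts per kb, SD, n = 3), Klf10 led without LIF (684 ± 130.0, n = 3) and Klf5 led when Dox was given in place of LIF (2068 ± 286, n = 3). With both guides Klf2, Klf10 and Klf5 led in the same 3 conditions, at 2098 ± 124 (n = 3), 803 ± 119 (n = 4) and 1122 ± 204 (n = 4). These leads are those of means. Libraries of Klf2 overlapped those of Klf5 (1697 ± 428) in LIF with the Nanog guide alone, libraries of Klf10 overlapped those of Klf9 without LIF in both cell types (670 ± 29.7 and 629 ± 80.3 for Klf9), and libraries of Klf5 overlapped those of Klf9 with Dox in place of LIF in Nanog/Otx2 SunTag cells (799.8 ± 74.5 for Klf9).

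**Figure D1:**
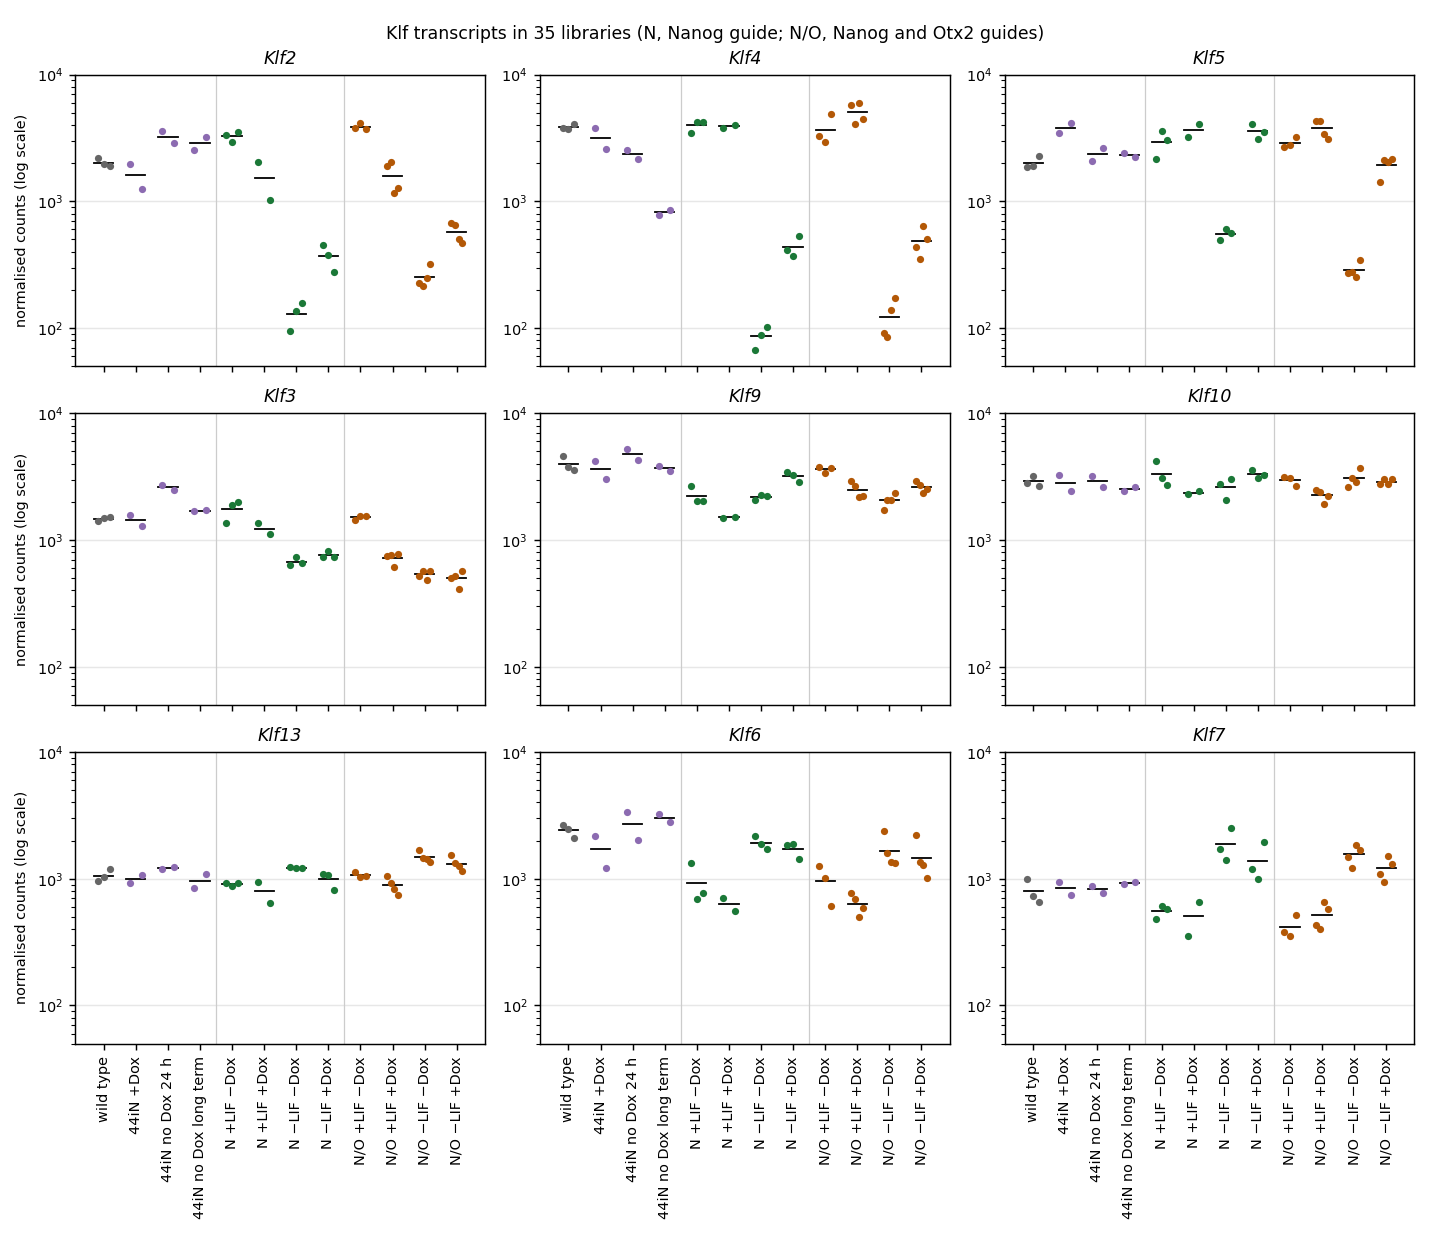
Normalised counts (log axis) of the 9 KLF genes, 1 panel each, in the 12 conditions on the horizontal axis, with a point for each library and a bar at the mean. Klf2, Klf4 and Klf5 are lower in every SunTag library without LIF or Dox than in any with LIF, while Klf10 and Klf13 stay within a narrow band in all conditions.

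LIF withdrawal without Dox asked how each member depends on the cytokine. Klf4, Klf2, Klf5 and Klf3 fell and Klf6 and Klf7 rose in both kinds of SunTag cell. Called genes were those with an adjusted p under 0.05. With the Nanog guide alone 4 of the 9 members fell and 2 rose, against 21.3% and 20.2% of all 15624 genes tested, and in Nanog/Otx2 SunTag cells 5 fell and 3 rose, against 25.2% and 24.6% of 15609. The median over the members was -0.37 and -0.85 on the log2 scale, beside -0.049 and -0.012 over all genes tested.

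Klf4 (ENSMUSG00000003032, chromosome 4, 55540013 to 55545347 of mm9) lost the most. In Nanog SunTag cells it had 3449, 4217 and 4234 normalised counts with LIF (libraries C1-1, C2-1 and C2-2, named by clone and number) and 67.6, 87.9 and 102 without (C1-1, C1-2 and C2-1). The groups lay far apart, with a 47.0-fold lower level without LIF (log2 fold change -5.56, standard error 0.22, adjusted p = 1.39e-07). In Nanog/Otx2 SunTag cells the values were 3252, 2944 and 4847 with LIF and 91.9, 84.5, 139.9 and 171 without, again with no overlap and 31.0-fold lower (log2 fold change -4.95, standard error 0.28, adjusted p = 3.62e-09).

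Klf2 (ENSMUSG00000055148, chromosome 8, 74842932 to 74845555) followed Klf4 in size. Its normalised counts were 3304, 2913 and 3534 with LIF and 94.5, 136 and 159 without in Nanog SunTag cells, and 3798, 4131 and 3694 against 226, 215, 246 and 318 in Nanog/Otx2 SunTag cells. All libraries without LIF were below all libraries with it, by 25.6-fold (log2 fold change -4.68, standard error 0.31, adjusted p = 1.93e-06) and 15.8-fold (log2 fold change -3.98, standard error 0.21, adjusted p = 1.95e-09). Klf5 (ENSMUSG00000005148, chromosome 14, 99697910 to 99712624) fell less. It had 2139, 3604 and 3020.0 normalised counts with LIF and 498, 605 and 565 without in Nanog SunTag cells, a 5.31-fold lower level (log2 fold change -2.41, standard error 0.20, adjusted p = 7.02e-06). In the cells with both guides it went from 2672, 2770.3 and 3199 to 274, 276, 251 and 345, 10.3-fold lower (log2 fold change -3.36, standard error 0.16, adjusted p = 1.18e-09). The fall of each of these 3 genes kept its direction within each of the 4 clones, which all derive from C1 or C2.

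Klf3 (ENSMUSG00000029178, chromosome 5, 65194628 to 65221368), the CtBP-recruiting repressor, was the only other member that fell in both. Its counts were 1349.6, 1891 and 1988 with LIF and 630.2, 729 and 660.1 without in Nanog SunTag cells (log2 fold change -1.39, adjusted p = 8.61e-05), and 1429, 1543 and 1560.0 against 522, 569, 482 and 569.8 in Nanog/Otx2 SunTag cells (-1.53, adjusted p = 7.06e-08). The level without LIF was 2.62-fold and 2.88-fold lower, a much smaller loss than that of Klf4.

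Klf6 (ENSMUSG00000000078, chromosome 13, 5860735 to 5869639) and Klf7 (ENSMUSG00000025959, chromosome 1, 64076021 to 64168856) rose. Klf7 had 479, 605 and 579 normalised counts with LIF and 1711, 1396 and 2500.3 without in Nanog SunTag cells, 3.33-fold higher (log2 fold change 1.73, adjusted p = 0.00128). With both guides it rose from 381, 355 and 518 to 1486, 1209, 1838 and 1689, 3.73-fold (1.90, adjusted p = 5.4e-06). The genes Gm17427 and Gm13748 on the opposite strand overlap Klf7, and the paper's RSEM settings for its stranded reads were strand-specific. Klf6 rose from 1331, 687 and 769 to 2160.2, 1863 and 1717 in Nanog SunTag cells (1.02, adjusted p = 0.00652) and from 1252, 1016 and 606 to 2362, 1597, 1351 and 1334 in Nanog/Otx2 SunTag cells (0.73, adjusted p = 0.0421). The latter call was lost, at a log2 fold change of 0.51 to 0.77, without any 1 of 7 of the 15 libraries: C1ON3-2 of any of the 4 conditions, C2ON3-1 with LIF, C2ON3-2 with LIF and Dox, and C1ON3-1 without either. In each of these 4 conditions the C1-derived libraries had the higher Klf6 level.

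Klf9, Klf10 and Klf13, the members linked to Sin3A, changed little or in 1 cell type. Klf9 (ENSMUSG00000033863, chromosome 19, 23215716 to 23241401, a gene that also contains the microRNA gene Mir1192) differed by -0.058 (adjusted p = 0.779) in Nanog SunTag cells but fell in Nanog/Otx2 SunTag cells, from 3739, 3386 and 3731 to 1728, 2064, 2052 and 2369 (-0.85, adjusted p = 2.66e-05). Klf13 (ENSMUSG00000052040, chromosome 7, 71031237 to 71083801) rose in Nanog/Otx2 SunTag cells, from 1125, 1033 and 1042 to 1685, 1448, 1436 and 1356 (0.44, adjusted p = 0.00685). With the Nanog guide alone its difference was of like size and did not pass (0.41, adjusted p = 0.0767), although all 3 libraries without LIF (1209 to 1232) were above the 3 with it (883 to 924), and it passed without either of the libraries with LIF and Dox (0.42 and 0.41). Klf10 (ENSMUSG00000037465, chromosome 15, 38221219 to 38230464) passed in neither (-0.37, adjusted p = 0.152 and 0.017, adjusted p = 0.917). Whether the effects differ between the cell types was not tested.

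Dox in the absence of LIF asked which members the induced guides raise. Klf5, Klf4, Klf2 and Klf9 rose in both cell types. In Nanog SunTag cells these were 4 of the 9 members, against 3.60% of all genes tested, and in Nanog/Otx2 SunTag cells 4, against 11.2%. No member fell. The members' median was 0.36 and -0.048 on the log2 scale, beside 0.0018 and -0.0065 over all genes.

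Klf5 rose most. Its normalised counts were 498, 605 and 565 without Dox and 4082, 3104 and 3489.7 with it in Nanog SunTag cells, 6.54-fold higher (log2 fold change 2.71, standard error 0.20, adjusted p = 5.15e-05). In Nanog/Otx2 SunTag cells they were 274, 276, 251 and 345 and 1409.6, 2115, 2040.0 and 2156, 6.93-fold higher (log2 fold change 2.79, standard error 0.16, adjusted p = 5.68e-08). Every library with Dox was above every library without it in both cell types, and the log2 ratio lay between 2.63 and 2.82 in the 4 clones. The lowest induced value, 1409.6, belonged to C1ON3-1.

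Klf4 rose from 67.6, 87.9 and 102 to 410.3, 369 and 533 in Nanog SunTag cells, 5.23-fold (log2 fold change 2.39, standard error 0.20, adjusted p = 7e-05), and from 91.9, 84.5, 139.9 and 171 to 439.8, 350.2, 641 and 506 in Nanog/Otx2 SunTag cells, 4.11-fold (log2 fold change 2.04, standard error 0.25, adjusted p = 6.43e-05). Klf2 rose from 94.5, 136 and 159 to 453, 375 and 277 (2.92-fold, log2 fold change 1.55, standard error 0.28, adjusted p = 0.00932) and from 226, 215, 246 and 318 to 676, 655, 501 and 466 (2.35-fold, log2 fold change 1.23, standard error 0.19, adjusted p = 0.00044). No group overlapped for either gene. The rise of Klf2 varied between clones: the log2 ratio was 1.85 in C1 and 1.59 in C1ON3, but 0.81 in C2 and 0.78 in C2ON3. With the Nanog guide alone the Klf2 call was lost without the library C1-1 grown without LIF or Dox (1.38, adjusted p = 0.0543), which left 2 members called, Klf4 and Klf5.

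Klf9 rose by less, from 2074, 2252 and 2229 to 3449, 3242 and 2876 normalised counts in Nanog SunTag cells (log2 fold change 0.58, standard error 0.15, adjusted p = 0.0493) and from 1728, 2064, 2052 and 2369 to 2895, 2700.4, 2329 and 2515 in Nanog/Otx2 SunTag cells (log2 fold change 0.38, standard error 0.11, adjusted p = 0.0243). In the latter the groups overlapped, since C2ON3-1 with Dox lay below C2ON3-2 without it. The call in Nanog SunTag cells was lost without any 1 of 9 of the 11 libraries (log2 fold change 0.51 to 0.64), all but the C1-1 libraries with LIF. That in Nanog/Otx2 SunTag cells was lost without any 1 of 4 of the 15 (0.31 to 0.38), C1ON3-1 and C2ON3-1 without Dox and C1ON3-1 and C1ON3-2 with it, all without LIF. Klf3, Klf6, Klf7, Klf10 and Klf13 did not pass in either cell type. Klf6, Klf7 and Klf13 were lower with Dox within each of the 4 clones, at log2 fold changes of -0.12, -0.41 and -0.27 in Nanog SunTag cells as a whole. With a term for clone and library number in Nanog/Otx2 SunTag cells, where libraries that share both deviated together, the fall of Klf7 passed as well (-0.33, adjusted p = 0.000788).

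**Figure D2:**
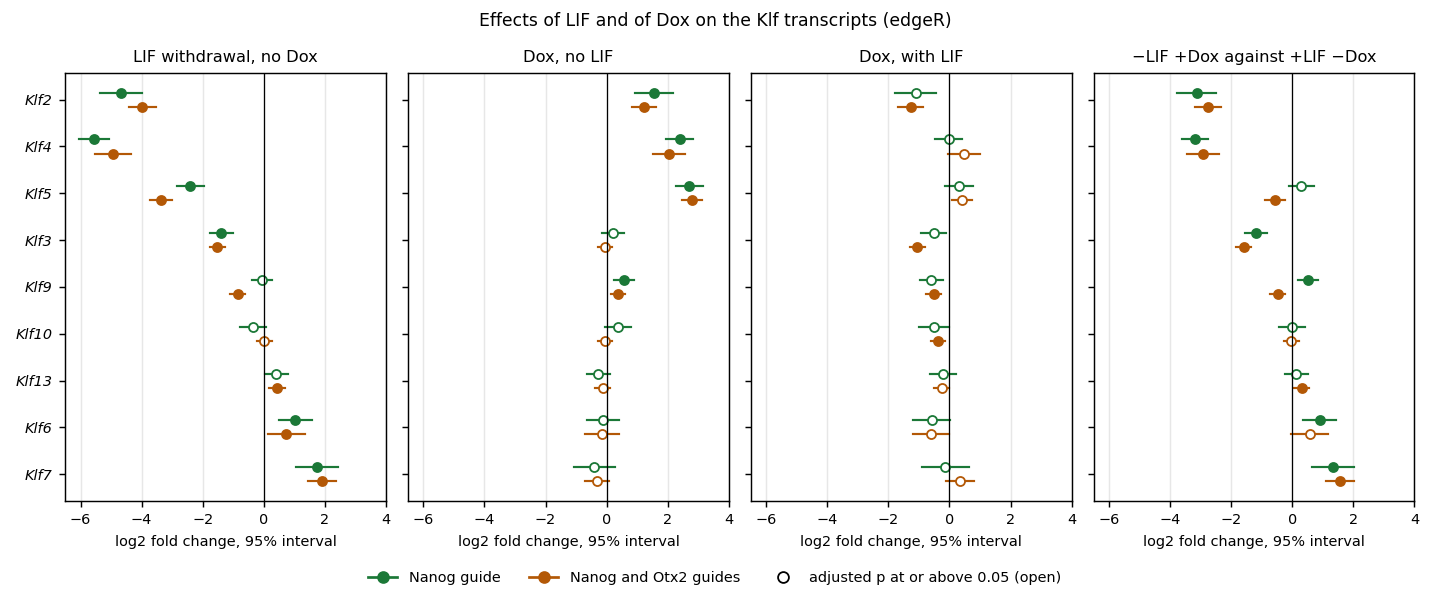
Log2 fold change of each KLF gene with its 95% interval in 4 comparisons, for Nanog SunTag and Nanog/Otx2 SunTag cells. Filled points passed the edgeR test at an adjusted p under 0.05 and open points did not: Klf2, Klf4 and Klf5 lie left of 0 on LIF withdrawal and right of 0 with Dox in the absence of LIF.

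Dox in place of LIF was then set against LIF without Dox, to ask how far the induced level comes back to the level in LIF. In Nanog SunTag cells Klf5 was not distinguishable from its LIF level, while Klf4 and Klf2 remained far below theirs. Klf5 had 3558 ± 492 (SD, n = 3) normalised counts with Dox alone and 2921 ± 737 (SD, n = 3) with LIF alone, a log2 difference of 0.30 with a 95% interval of -0.12 to 0.71 (adjusted p = 0.259), and the libraries of the groups overlapped. In the cells with both guides it came to 1930.3 ± 350.5 (SD, n = 4) against 2880.3 ± 280.2 (SD, n = 3), 1.48-fold lower (log2 difference -0.57, adjusted p = 0.00737, 95% interval -0.90 to -0.24). The clones were unevenly spread in Nanog SunTag cells: C1 gave 2 libraries with Dox alone and 1 with LIF alone, and C2 gave 1 and 2. Within clones the Klf5 log2 ratio was 0.75 in C1, 0.075 in C2, -0.63 in C1ON3 and -0.61 in C2ON3.

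Klf4 was 8.99-fold lower with Dox than with LIF in Nanog SunTag cells (log2 difference -3.17, adjusted p = 6.13e-06) and 7.53-fold lower in Nanog/Otx2 SunTag cells (-2.91, adjusted p = 6.2e-07). For Klf2 the same comparison gave 8.74-fold (-3.13, adjusted p = 4.57e-05) and 6.74-fold (-2.75, adjusted p = 1.24e-07). Klf3 was also lower (-1.18, adjusted p = 0.000607 and -1.59, adjusted p = 1.31e-07) and Klf7 higher (1.33, adjusted p = 0.00984 and 1.57, adjusted p = 4.83e-05). Klf9 was above its LIF level in Nanog SunTag cells (0.52, adjusted p = 0.0252) and below it in Nanog/Otx2 SunTag cells (-0.47, adjusted p = 0.00432). In all, 6 members differed in Nanog SunTag cells, 3 of them lower and 3 higher, where 28.1% of all genes did, and 7 in Nanog/Otx2 SunTag cells, 5 of them lower and 2 higher, where 45.3% did. The calls of Klf6 (0.90, adjusted p = 0.019) and Klf9 in Nanog SunTag cells and of Klf13 (0.31, adjusted p = 0.0497) in Nanog/Otx2 SunTag cells were lost without some single libraries: for Klf6 without C2-1 or C2-2 with LIF or C1-1b with Dox (0.72 to 0.87), for Klf9 without C2-1 or C2-2 with LIF or C1-1 or C1-1b with Dox (0.44 to 0.54), and for Klf13 without any 1 of 11 of the 15 libraries (0.23 to 0.35). Klf6 in Nanog/Otx2 SunTag cells was at 0.58 (adjusted p = 0.108), and passed with the term for clone and library number (0.67, adjusted p = 0.000424).

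With Dox present throughout, Klf5 did not pass between cells without and with LIF in Nanog SunTag cells and fell in Nanog/Otx2 SunTag cells. With the Nanog guide alone Klf5 had 4082, 3104 and 3489.7 normalised counts without LIF and 3239.6 and 4036 with it, a log2 fold change of -0.0077 with a 95% interval of -0.47 to 0.46 (adjusted p = 0.982). With both guides it was 1409.6, 2115, 2040.0 and 2156 against 4317, 4289, 3425 and 3118, lower in every library (log2 fold change -0.98, standard error 0.14, adjusted p = 0.0001). Klf4 (-3.14, adjusted p = 1.05e-05 and -3.39, adjusted p = 1.41e-07), Klf2 (-2.02, adjusted p = 0.000772 and -1.48, adjusted p = 2.26e-05) and Klf3 (-0.66, adjusted p = 0.0183 and -0.54, adjusted p = 0.00129) were lower without LIF in both cell types, and Klf6 (1.48, adjusted p = 0.00326 and 1.18, adjusted p = 0.00252) and Klf7 (1.46, adjusted p = 0.0108 and 1.21, adjusted p = 0.000184) were higher. Klf9 was higher as well in Nanog SunTag cells (means of 3189 against 1510 normalised counts). So were Klf10 (2893 against 2255) and Klf13 (1318 against 887) in Nanog/Otx2 SunTag cells. In Nanog SunTag cells 3 members were thus lower and 3 higher, beside 15.5% and 17.1% of all genes, and in Nanog/Otx2 SunTag cells 4 and 4, beside 17.9% and 18.7%. The Klf3 and Klf7 calls in Nanog SunTag cells were lost without the C1-1 library with LIF and Dox (-0.50, adjusted p = 0.156, and 1.09, adjusted p = 0.103), that of Klf3 also without C1-1 or C2-2 with Dox alone (-0.63), and that of Klf10 in Nanog/Otx2 SunTag cells without C2ON3-1 with LIF and Dox (0.28).

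The summed level of the 3 naive activators shows the extent of the rescue and its change in makeup. Klf2, Klf4 and Klf5 together had 4754 ± 515 normalised counts per kb with LIF in Nanog SunTag cells (SD, n = 3), 421 ± 50.9 without LIF (n = 3) and 2410.2 ± 316 with Dox in place of LIF (n = 3). In Nanog/Otx2 SunTag cells the sums were 4974 ± 411 (n = 3), 343 ± 58.1 (n = 4) and 1591 ± 175 (n = 4). No libraries of these 3 conditions overlapped within a cell type. Klf5 made up 29.9 to 41.5% of the sum with LIF, 73.4 to 79.8% without and 84.8 to 86.2% with Dox in place of LIF in Nanog SunTag cells. In the cells with both guides its share was 33.2 to 34.2%, 44.8 to 52.7% and 61.6 to 75.0%. The restored sum was therefore mostly Klf5 in both cell types, whereas the sum in LIF was divided between the 3 genes.

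**Figure D3:**
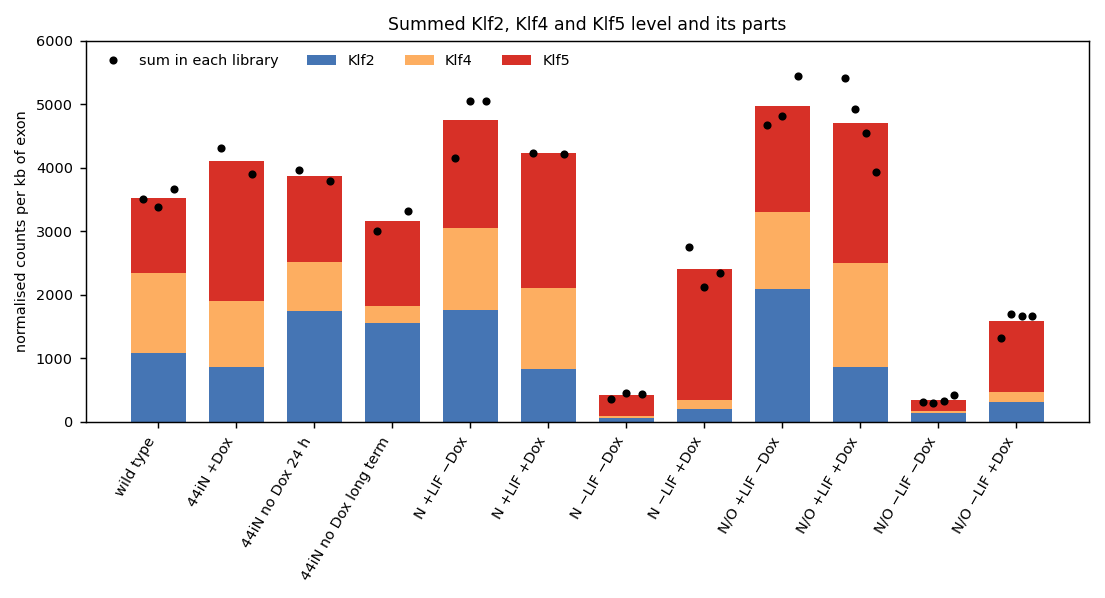
Stacked mean normalised counts per kb of Klf2, Klf4 and Klf5 in the 12 conditions, with a dot for the sum in each library. The sum drops without LIF and returns in part with Dox, when most of the bar is Klf5.

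Whether the 3 activators moved by unequal amounts was tested on the log2 ratio of 2 genes within a library (pseudocount 1), by exact two-sided permutation tests of 3 pairs in each of 4 comparisons. With Dox in the absence of LIF, the Klf5/Klf2 log2 ratio rose by 1.17 in Nanog SunTag cells (exact permutation p = 0.1, the smallest that 3 against 3 allows) and by 1.55 in Nanog/Otx2 SunTag cells (p = 0.0286, exact permutation, the smallest that 4 against 4 allows, and 0.0857 after adjustment over the 3 pairs). The Klf5/Klf4 log2 ratio differed by 0.33 and 0.73 (exact permutation p = 0.3 and 0.0857). On LIF withdrawal the Klf5/Klf4 log2 ratio rose by 3.16 and 1.60, with no overlap, at the smallest p that these designs allow (0.1 and 0.0571, exact permutation). The Klf5/Klf2 log2 ratio differed by 2.30 and 0.62 on LIF withdrawal. That of Klf4/Klf2 differed by 0.83 and 0.82 with Dox and by -0.86 and -0.98 on LIF withdrawal. The groups did not overlap for Klf5/Klf2 with Dox or for any of the 3 pairs on LIF withdrawal, in both cell types. With Dox, Klf4/Klf2 did not overlap in Nanog SunTag cells alone. No pair passed 0.05 after adjustment.

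Dox in the presence of LIF asked whether the guides act on the members when LIF is there. With both guides Klf2, Klf3, Klf9 and Klf10 were lower with Dox. Klf2 fell from 3798, 4131 and 3694 to 1912, 2028, 1163 and 1261 normalised counts (log2 fold change -1.27, standard error 0.19, adjusted p = 0.000439), and Klf3 fell from 1429, 1543 and 1560.0 to 743, 759.8, 607 and 768 (log2 fold change -1.05, standard error 0.11, adjusted p = 5.62e-05). The repressors Klf9 (-0.52, adjusted p = 0.00576) and Klf10 (-0.38, adjusted p = 0.0252) were lower too, the latter call being lost without C2ON3-1 with LIF and Dox (-0.31, adjusted p = 0.076) or without either of the C1ON3 libraries with LIF alone. These 4 of 9 members compare with 10.0% of all 15609 genes that were lower. With the term for clone and library number, 8 of the 9 members passed, beside 41.0% of all genes in the same fit, adding Klf4 (0.47, adjusted p = 0.017), Klf6 (-0.47, adjusted p = 0.00894), Klf7 (0.25, adjusted p = 0.013) and Klf13 (-0.20, adjusted p = 0.02).

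No member passed in Nanog SunTag cells with LIF, where 0.563% of all genes tested did. The targeted Nanog did not pass there either, although its libraries with Dox lay above all those without it. Klf2 had 3304, 2913 and 3534 normalised counts without Dox and 2048 and 1022 with it, so that both induced libraries lay below the other 3, at a log2 fold change of -1.10 (adjusted p = 0.138). It passed with DESeq2 (-1.09, adjusted p = 0.0273), as did Klf9 (-0.57, adjusted p = 0.0392). The Klf2 log2 ratio was negative in each of the 4 clones, at -0.69 in C1, -1.66 in C2, -1.01 in C1ON3 and -1.61 in C2ON3. Klf4 differed by -0.028 (adjusted p = 0.966) and Klf5 by 0.31 (adjusted p = 0.536) in Nanog SunTag cells, with 95% intervals of -0.47 to 0.41 and -0.15 to 0.77.

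The difference between the Dox effects without and with LIF was tested directly as an interaction. It was positive for Klf2, Klf4, Klf5 and Klf9 in both cell types, and also for Klf3 in Nanog/Otx2 SunTag cells. With the Nanog guide alone it was 2.65 (adjusted p = 0.011) for Klf2, 2.42 (adjusted p = 0.00514) for Klf4, 2.40 (adjusted p = 0.00543) for Klf5 and 1.16 (adjusted p = 0.0274) for Klf9 on the log2 scale, and 1.32% of all genes had a positive interaction that passed. The Klf9 interaction no longer passed (1.07 to 1.21) without any 1 of 7 of the 11 libraries, all but the 3 with LIF alone and C2-2 with Dox alone, and that of Klf3 passed without C1-1 with LIF alone (0.87). In Nanog/Otx2 SunTag cells it was 2.50 (adjusted p = 7.6e-05) for Klf2, 0.99 (adjusted p = 0.00133) for Klf3, 1.56 (adjusted p = 0.00979) for Klf4, 2.38 (adjusted p = 2.18e-05) for Klf5 and 0.90 (adjusted p = 0.00265) for Klf9, where 5.15% of all genes passed in that direction. In the cells with both guides the Klf2 effect turned its sign, from a fall in LIF to a rise without it, both of which passed. In LIF, Klf4 (0.48) and Klf5 (0.41) did not pass there, but Klf4 did with the term for clone and library number and Klf5 with DESeq2 (adjusted p = 0.0465). With the term for clone and library number, Klf7 (-0.58, adjusted p = 0.000673) and Klf10 (0.38, adjusted p = 0.0438) passed as well.

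**Figure D4:**
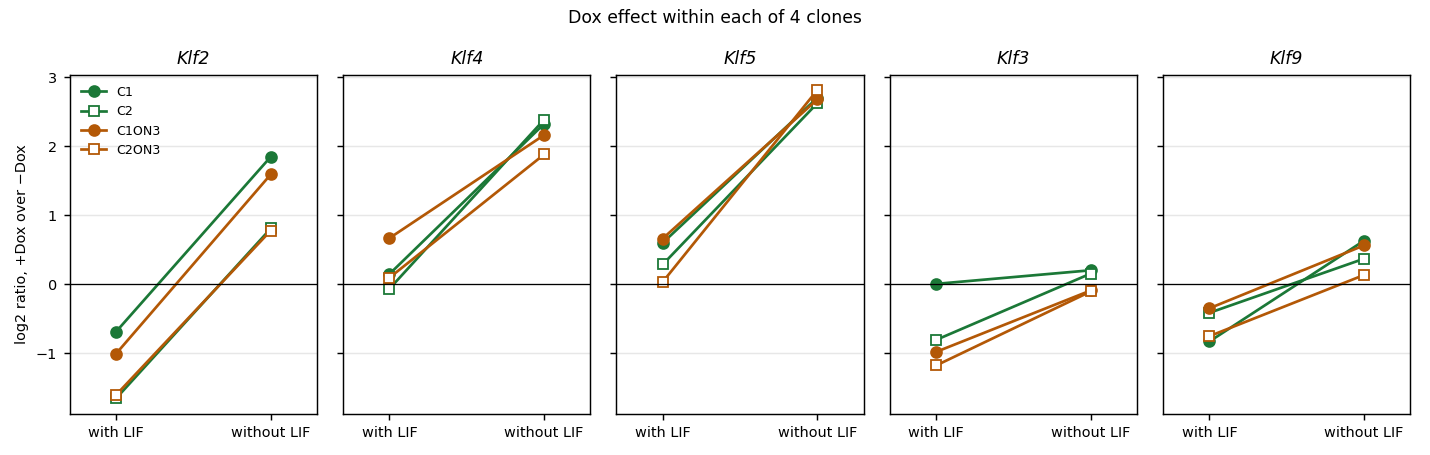
Log2 ratio of normalised counts with over without Dox within each of the 4 clones, with and without LIF, for Klf2, Klf3, Klf4, Klf5 and Klf9. Klf2 lies above 0 without LIF and below 0 with LIF in all 4 clones, while Klf4 and Klf5 lie at 1.88 or higher without LIF and at 0.67 or lower with it.

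The guides were compared with each other in cells with Dox and no LIF. Klf5 was lower in Nanog/Otx2 SunTag cells (1930.3 ± 350.5, SD, n = 4) than in Nanog SunTag cells (3558 ± 492, SD, n = 3), with no overlap (log2 difference -0.95, adjusted p = 0.00985), and so was Klf3 (500.1 ± 67.3, SD, n = 4 against 765 ± 52.3, SD, n = 3, -0.68, adjusted p = 0.00498). These were 2 of 9 members, and 32.6% of all 15934 genes differed in this direct comparison. Klf5 and Klf3 were lower in Nanog/Otx2 SunTag cells without Dox as well, at 251 to 345 against 498 to 605 and 482 to 569.8 against 630.2 to 729. The difference between the Dox effects of the cell types was 0.04 (adjusted p = 0.988) for Klf5 and -0.32 (adjusted p = 0.896) for Klf3, and only 5 of all genes passed that test. Columns of the 2 cell types also carry different name prefixes, whose meaning the labels do not give. The added guide, the choice of clones and whatever the prefixes mark cannot be told apart.

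44iN cells asked what the loss of Nanog does in LIF. Klf4 was low in the long-term Nanog-null cells. It had 3785, 3705 and 4053 normalised counts in wild-type E14Tg2a libraries and 782 and 849.9 in the long-term libraries, 4.98-fold lower (log2 fold change -2.31, standard error 0.15, adjusted p = 0.000506). It was the only member to pass, where 5.26% of all 14937 genes were lower. Klf2 had 2185, 1965 and 1901 in wild type and 2530.5 and 3213 in the long-term cells (0.43, adjusted p = 0.125) and Klf5 1875, 1908 and 2262 and 2388 and 2252 (0.13, adjusted p = 0.608). The summed level per kb of Klf2, Klf4 and Klf5 was 3013 and 3326 in the long-term libraries and 3384 to 3668 in wild type, and the share of Klf4 in it was 8.42% and 35.7% on average. Transgene, selection, time in culture and loss of Nanog cannot be told apart in this comparison.

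Dox for the transgene against 24 h without it gave no called gene at all in edgeR (0.00% of 14376 genes, with 1023 at an unadjusted p under 0.05, and 141 called by DESeq2), so that no member was called either. With Dox, Klf2 had 1955 and 1246 normalised counts against 3561 and 2875 after removal (-0.92, adjusted p = 0.51), and Klf3 1562 and 1297 against 2717 and 2479 (-0.77, adjusted p = 0.456). Klf5 had 3452 and 4110.3 against 2073 and 2612 (0.79, adjusted p = 0.534) and Klf4 3803 and 2566 against 2551 and 2174 (0.52, adjusted p = 0.784). For each of these 4 genes the 2 libraries of one group did not overlap those of the other, with n = 2 in each. The same held for Klf9 and Klf13, and Klf4 was separated only by 2566 against 2551. How many of all genes separate in this way was not counted, so the separation says nothing particular of the members. Without the first library with Dox, 4 members passed, beside 22.6% of the 15107 genes of that fit: Klf2 (-1.27, adjusted p = 0.000114), Klf3 (-0.90, adjusted p = 0.00846), Klf5 (0.91, adjusted p = 0.00302) and Klf6 (-1.04, adjusted p = 0.0021), the remaining library being assumed to vary like the others. A joint test of the Dox effects in LIF in Nanog SunTag and 44iN cells called 0.307% of 15642 genes and no member. Its Klf2 log2 fold changes were -1.08 and -0.92 (adjusted p = 0.24), and Klf2 passed with DESeq2 (adjusted p = 0.0139).

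The genes whose levels were most like those of the members over the 35 libraries were found by Pearson's r of log2(normalised count + 1) among the 11291 genes whose mean reached 100 normalised counts. They were Fbxo15 (0.947), Lrrc2 (0.945) and Tdh (0.942) for Klf2, Serpinb1a (0.972), Mapt (0.970) and Tbx3 (0.970) for Klf4, Spn (0.938), B3galnt1 (0.927) and H2-M5 (0.924) for Klf5 and Itgb1 (0.953), Pi4k2b (0.948) and Rlim (0.924) for Klf6. Tbx3 is a naive pluripotency factor and Itgb1 encodes integrin beta 1. The 35 libraries share conditions and clones, so these values describe likeness over the design. Among the members themselves, Klf7 ran opposite to Klf4 (r = -0.829) and Klf2 (r = -0.818) over the same libraries.

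More genes of the LIF to STAT3 route, a list of 20, fell than rose without LIF. In Nanog SunTag cells 12 of its 20 tested genes fell and 2 rose, against 21.3% and 20.2% of all genes (median -1.38 beside -0.049 over all genes). In Nanog/Otx2 SunTag cells 13 fell and 2 rose, against 25.2% and 24.6% (median -1.11 beside -0.012 over all genes). The largest log2 fold changes in Nanog SunTag cells were those of Socs3 (-5.93), Bcl3 (-5.19), Lifr (-2.54) and Stat3 (-2.43). Socs3 and Bcl3 are STAT3 targets, and Lifr encodes the LIF receptor. With Dox in the absence of LIF, 3 genes of the list rose in Nanog SunTag cells, against 3.60% of all genes, and 0 fell (median 0.04 beside 0.0018 over all genes). Lifr (1.87), Stat5a (1.78) and Il6st (1.16) led. With both guides 8 rose, against 11.2%, and 0 fell (median 0.31 beside -0.0065 over all genes), among them Lifr (1.71), Stat5a (1.67) and Tyk2 (0.77). In LIF, Dox changed 0 of the list in Nanog SunTag cells, beside 0.563% of all genes. In Nanog/Otx2 SunTag cells it raised 4 and lowered 3, beside 2015 and 1562 of all 15609 genes.

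Most naive pluripotency factors other than KLFs (15 genes, among them the targeted Nanog, whose rise with Dox the design fixes) fell on LIF withdrawal and rose with Dox in its absence. On LIF withdrawal 13 of 15 fell in Nanog SunTag cells, against 21.3% of all genes (median -3.56 beside -0.049 over all genes). In Nanog/Otx2 SunTag cells 13 fell, against 25.2% (median -3.16 beside -0.012 over all genes), and none rose in either cell type. With Dox in the absence of LIF, 11 rose in Nanog SunTag cells, against 3.60% of all genes (median 2.20 beside 0.0018 over all genes), led beside Nanog by Prdm14 (3.28), Esrrb (3.23) and Zfp42 (3.11). In Nanog/Otx2 SunTag cells 10 rose, against 11.2% (median 2.10 beside -0.0065 over all genes), led beside Nanog by Tbx3 (3.09), Prdm14 (3.04) and Esrrb (3.03). The rise of Klf4 and Klf5 lay within the range of these genes. That of Klf2 was below their median in both cell types, and that of Klf4 just below it in Nanog/Otx2 SunTag cells. In LIF, Dox changed 0 of the naive factors in Nanog SunTag cells, beside 0.563% of all genes. In Nanog/Otx2 SunTag cells it raised 3 and lowered 3, beside 2015 and 1562 of all 15609 genes.

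Other KLF and SP genes were called on LIF withdrawal about as often as genes at large in Nanog SunTag cells. Of 13 tested, 4 rose and 1 fell there, against 20.2% and 21.3% of all genes (median 0.34 beside -0.049 over all genes), with Sp8 (3.00), Sp6 (1.73), Klf8 (-1.26) and Sp4 (0.97) the largest, and 2 rose and 4 fell in Nanog/Otx2 SunTag cells, against 24.6% and 25.2% (median -0.10 beside -0.012 over all genes). With Dox in the absence of LIF, 0 passed in Nanog SunTag cells. In Nanog/Otx2 SunTag cells 4 rose, beside 11.2% of all genes, and 2 fell, the largest being Klf8 (0.85), Sp6 (-0.76) and Sp2 (0.25). Among 12 genes for corepressors and ubiquitin ligases that act on KLFs, 1 rose and 1 fell on LIF withdrawal in Nanog SunTag cells, Smurf2 (0.81) and Wdr5 (-0.67). The shares of all genes there were 20.2% and 21.3%. Beside 24.6% and 25.2% of all genes, 3 of the 12 rose and 3 fell in Nanog/Otx2 SunTag cells. Dox in the absence of LIF changed 0 of them in Nanog SunTag cells and lowered 3 in Nanog/Otx2 SunTag cells. The share of all genes that Dox lowered there is not given here, neither for these genes nor for the KLF and SP genes above.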

How the data were processed

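RNA-seq of polyadenylated RNA (stranded TruSeq libraries, single-end reads of 65 bases) was aligned by the authors with STAR to mm9 and quantified with RSEM, after base calling with CASAVA 1.8 per the labels' processing notes. The deposited tables hold estimated counts, rounded to whole numbers, and the same counts divided by DESeq2 size factors over the 35 libraries, a signal called normalised counts here. Levels per kb divide normalised counts by the union of a gene's exons in GENCODE vM1 (1847 bases for Klf2, 3060 for Klf4 and 1721 for Klf5). Transcript lengths used in the counting were not available here, and ranks and shares per kb depend on the lengths taken. Serum libraries only were used, and 2i, ChIP and ATAC samples were not analysed here.

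Estimated counts were tested with edgeR 4.0.16 (R 4.3.3; quasi-likelihood, TMM) over all genes whose libraries of 1 condition each reached 10 normalised counts, with Benjamini-Hochberg adjustment and a threshold of 0.05. Libraries of all conditions of a cell type shared 1 fit. DESeq2 1.42.0, other filters and size factors, replicate blocks and leaving out each library were alternatives. Scripts were tested on simulated data. Nanog/Otx2 SunTag libraries of the same clone and number deviated together in all 21 pairs (correlation at least 0.131, mean 0.299), so blocked values are given beside the unblocked main results where they change a call. The mean was 0.229 for pairs of the same clone whatever their number, and 0.306 for pairs by clone and column number. That the numbers pair the libraries is inferred from these correlations. No 2 replicates were identical, and all differed beyond sampling noise. Titles and table columns of 4 SunTag libraries gave the same clone but different numbers, and titles were followed.

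The 9 members and the gene lists were chosen with earlier results of these data known. Genes named beyond the members were Nanog and Otx2, at most 4 called genes of each list with the largest log2 fold change and a mean of at least 100 normalised counts, and the 3 nearest genes by correlation for Klf2, Klf4, Klf5 and Klf6. A gene that this rule would name is not reported here.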

Additional observations from a re-analysis of the deposited data

Results flagged for a closer look

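In groups of 4 libraries, 2 of 27 groups of values held a library whose gap to the others took up most of the group's range, and chance flags about 1 group in 20. Klf3 had 607 normalised counts in C2ON3-1 with LIF and Dox, against 743 to 768 in the other 3 libraries. Klf5 had 1409.6 in C1ON3-1 with Dox and no LIF, against 2040.0 to 2156 in the other 3. Leaving out the library ended no call of the gene, and without C1ON3-1 Klf5 passed for Dox with LIF in Nanog/Otx2 SunTag cells as well (log2 fold change 0.41).

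The effect of Dox differed between cells without and with LIF, by edgeR's test of the interaction. In Nanog SunTag cells the difference in log2 fold change was 2.65 for Klf2 (adjusted p = 0.011), 2.42 for Klf4 (adjusted p = 0.00514), 2.40 for Klf5 (adjusted p = 0.00543) and 1.16 for Klf9 (adjusted p = 0.0274). In Nanog/Otx2 SunTag cells it was 2.50 for Klf2 (adjusted p = 7.6e-05), 0.99 for Klf3 (adjusted p = 0.00133), 1.56 for Klf4 (adjusted p = 0.00979), 2.38 for Klf5 (adjusted p = 2.18e-05) and 0.90 for Klf9 (adjusted p = 0.00265). All were higher without LIF than with it.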

How the results depend on the processing

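Of 1881 values recomputed with 1 library left out, 1813 kept their side of the threshold, and of 987 values under other settings, 938 did. These include 66 values that changed sign but were called in neither fit, 44 of them with a library left out. Their recomputed size was at most 0.40. Counts of members called without 1 library ranged, for Nanog SunTag cells, from 6 to 7 on LIF withdrawal without Dox, 2 to 4 for Dox without LIF, 0 to 0 for Dox with LIF, 3 to 5 for the interaction, 4 to 6 for Dox in place of LIF and 4 to 7 for LIF withdrawal with Dox. For Nanog/Otx2 SunTag cells they ranged from 7 to 8, 3 to 4, 3 to 5, 5 to 5, 6 to 7 and 7 to 8. They were 2 to 3 between guides, 0 to 4 in 44iN cells, 0 to 0 jointly and 1 to 1 in long-term cells. DESeq2 called 2 members for Dox with LIF in Nanog SunTag cells and 1 in the joint test, which also called 1 with no filter on low counts. DESeq2 also called Klf13 on LIF withdrawal in Nanog SunTag cells, Klf5 for Dox with LIF in Nanog/Otx2 SunTag cells and Klf13 between the guides. With no filter, Klf9 (Dox without LIF) and Klf3 (LIF withdrawal with Dox) lost their calls in Nanog SunTag cells, and Klf10 (Dox with LIF) and Klf13 (Dox in place of LIF) theirs in Nanog/Otx2 SunTag cells, Klf13 also with edgeR's own filter and Klf9 also with DESeq2 size factors. Fits of only the 2 groups added Klf10 (LIF withdrawal with Dox, Nanog SunTag cells) and Klf5 (Dox with LIF, Nanog/Otx2 SunTag cells). The replicate block of clone and number called 8 for Dox with LIF in Nanog/Otx2 SunTag cells, and that by column number, chosen for these cells after seeing the data, 9. The former changed other calls only where the text gives its value. For Nanog SunTag cells, the block by column number ended the Klf9 calls for the interaction and for Dox in place of LIF. 44iN libraries share only a number: a replicate block on it called 4 members (Klf2, Klf3, Klf5 and Klf6) in 44iN cells and 3 in long-term cells (Klf2, Klf4 and Klf10). Between the guides, a fit of only the 2 groups called 6 members and the difference of Dox effects 0, also with a replicate block by clone, where Klf5 reversed (0.039 and 0.036). For most of these alternative fits the share of all genes called is not given here. Without it, a count of members called says nothing particular of the members. A pseudocount of 10 let 2 pair ratios pass. The lowest count of a member in any library was 64 (Klf4).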

Other observations

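Klf6 and Klf7 levels differed between the clones. In Nanog/Otx2 SunTag cells without LIF or Dox it had 2362 and 1597 normalised counts in the C1ON3 libraries and 1351 and 1334 in the C2ON3 libraries, and with Dox alone 2197 and 1345 against 1272 and 1012. Klf7 had the opposite order. It was at 1486 and 1209 in C1ON3 and 1838 and 1689 in C2ON3 without LIF or Dox, and at 1084 and 941 against 1498 and 1309 with Dox alone. These differences between clones were not tested.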
